A study of Mus musculus with 2 samples.

Results

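Cystatin C and the lysosomal cathepsins are described here as a set of 9 genes among the 32285 measured: the inhibitors Cst3 (cystatin C) and Cstb (cystatin B), the cysteine proteases Ctsb, Ctsl, Ctss and Ctsz, the asparaginyl endopeptidase Lgmn, the aspartic protease Ctsd and the serine carboxypeptidase Ctsa. The members were taken by gene symbol, and all 9 were found. They were selected on earlier results of these data, with levels by cell class and ratios of the libraries known, so their values are a description and none was tested. The data are single-cell RNA sequencing of sorted cells from the cortex of male mice 4 months old, with 1 library from Fam69c knockout mice and 1 from wild-type mice. Cortices were pooled within each genotype before dissociation, and cells were sorted after staining with 7-AAD, a dye that enters dead cells. The protocol names 7 mice and does not say whether that is the number for each genotype. It gives 13 or 12 indexing cycles without assigning them to a library. The sources used here do not describe the knockout allele. With 1 pool for each genotype, genotype and pool cannot be told apart, no test was made, and every interval below is an exact 95% interval that covers counting error only.

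Cathepsins are made as inactive precursors, sorted to the lysosome and activated at acid pH, where they degrade proteins. Cystatin C is secreted and blocks cysteine cathepsins and legumain outside the cell and in the endocytic pathway, whereas cystatin B works in the cytosol and nucleus. In the brain, cystatin C is known as an abundant product of astrocytes and microglia, and cathepsin S as a microglial protease.

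For the knockout library 9182 barcodes with 75473717 UMIs (unique molecular identifiers, each counting 1 captured transcript) were deposited, and for the wild-type library 7150 barcodes with 57166105 UMIs. The 2 libraries shared 17 barcodes. After filtering, 7032 knockout and 4940 wild-type cells remained, with medians of 8449 UMIs in knockout and 8580 UMIs in wild-type cells. Each cell was assigned to a type by marker genes, and such a set is called a gate. The gates with at least 100 cells in each library held 3041 knockout and 1410 wild-type astrocyte-gated cells, 788 knockout and 648 wild-type oligodendrocyte-gated cells, 321 knockout and 268 wild-type microglia-gated cells, 260 knockout and 193 wild-type endothelial-gated cells, and 458 knockout and 276 wild-type neuroblast-gated cells. In 1280 knockout cells (18.2%) and 1089 wild-type cells (22.0%) no gate was met. A gate cuts a continuous score, and 366 knockout cells (5.20%) and 393 wild-type cells (7.96%) lay within 0.1 of the cut. The leading genes of the astrocyte gate included Aqp4, Gja1 and Slc1a3, and those of the microglia gate included Cx3cr1, P2ry12 and Siglech. Fam69c appears under the symbol Dipk1c. In astrocyte-gated cells it had 34.2 CPM (UMIs scaled to a common total of 1e6 for the gate) in the knockout library (1014 UMIs), against 62.7 CPM in the wild-type library (1230 UMIs). The reads are 3' tags and the deleted part is not given, so this does not check the allele.

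Promoters were read for 7 of the 9 members, from the RefSeq table on GRCm38.p6; Cstb and Ctsb were not among them. The 4 shown are Cst3, the member that differed most in astrocyte-gated cells, Ctss, the member with the widest gap between the microglia gate and the other 4 main gates, and Ctsd and Ctsa. The windows shown of Ctsd and Ctsa hold the palindromic core of the lysosomal (CLEAR) element bound by the TFEB family. Each is the 250 bases upstream of the RefSeq start, 5' to 3' on the gene's strand, and capitals mark matches to TCACGTGA or to the E-box CACGTG that lies inside it. They are Cst3 at chr2:148875513-148875762 on the minus strand, Ctss at chr3:95526536-95526785 on the plus strand, Ctsd at chr7:142387828-142388077 on the minus strand and Ctsa, from the second of 2 starts, at chr2:164833523-164833772 on the plus strand.
Cst3: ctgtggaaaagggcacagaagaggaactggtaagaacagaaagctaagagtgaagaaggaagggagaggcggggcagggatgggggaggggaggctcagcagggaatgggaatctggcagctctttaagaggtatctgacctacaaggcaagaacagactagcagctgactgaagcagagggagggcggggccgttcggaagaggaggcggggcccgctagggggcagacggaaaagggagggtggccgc
Ctss: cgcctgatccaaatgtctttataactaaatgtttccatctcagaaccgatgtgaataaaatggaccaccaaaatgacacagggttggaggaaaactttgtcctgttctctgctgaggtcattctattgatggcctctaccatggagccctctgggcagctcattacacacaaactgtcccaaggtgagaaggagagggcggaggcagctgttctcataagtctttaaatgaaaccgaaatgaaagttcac
Ctsd: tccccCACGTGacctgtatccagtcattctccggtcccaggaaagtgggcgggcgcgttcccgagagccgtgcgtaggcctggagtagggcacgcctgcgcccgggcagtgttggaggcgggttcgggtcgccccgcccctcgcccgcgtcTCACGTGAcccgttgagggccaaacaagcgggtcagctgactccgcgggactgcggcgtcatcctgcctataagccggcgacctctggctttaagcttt
Ctsa: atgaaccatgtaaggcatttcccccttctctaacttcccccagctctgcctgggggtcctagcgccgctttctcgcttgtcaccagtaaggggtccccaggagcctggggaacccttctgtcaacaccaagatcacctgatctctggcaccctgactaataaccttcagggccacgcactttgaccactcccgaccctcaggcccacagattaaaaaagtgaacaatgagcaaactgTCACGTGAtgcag

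The motifs were chosen with the sequences in view, and both strands were searched. TCACGTGA began 99 bases upstream of the start of Ctsd and 13 bases upstream of the second start of Ctsa. Of 32851 promoter windows of the same length, 0.785% held it. CACGTG had a further match 245 bases upstream in Ctsd, 1 match in Ctsl at 236 bases and 1 in a second Lgmn window at 49 bases, and 6.02% of windows held it. The first Lgmn window held 0 matches to CACGTG. The first Ctsa window, at chr2:164832622-164832871 and upstream of the annotated gene, held 0 matches to TCACGTGA and 0 to CACGTG. The Ctsl window and the second windows of Lgmn and Ctsa lie wholly inside the annotated span of their gene, so they precede an internal start. The PU.1 site core GAGGAAGT, also searched, had 0 matches in any member's window, against 2.44% of all windows. A match describes these letters and not a site in use.

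Cst3 was highest in microglia-gated cells and next highest in astrocyte-gated cells. Microglia-gated cells had 45028 CPM in the knockout library and 41433 CPM in the wild-type library. Astrocyte-gated cells had 16334 CPM in the knockout library and 10106 CPM in the wild-type library. In both libraries the microglia gate stood above the astrocyte gate, and both stood above the other 12 gates with at least 20 cells in each library. The lowest levels were in oligodendrocyte-gated cells, at 580 CPM in the knockout library and 427 CPM in the wild-type library. Ctsb, Ctsl, Ctss, Ctsz, Lgmn, Ctsd and Ctsa were also highest in microglia-gated cells in both libraries, but the gate that came next differed. For Ctss it was monocyte-gated cells, with 1952 CPM in knockout and 2005 CPM in wild-type cells, then B cell-gated cells, with 508 CPM in knockout and 540 CPM in wild-type cells. Monocyte-gated cells were next also for Ctsb, Ctsz and Ctsa. For Ctsl it was oligodendrocyte precursor-gated cells, with 981 CPM in knockout and 740 CPM in wild-type cells. For Ctsd it was fibroblast-gated cells, with 663 CPM in knockout and 581 CPM in wild-type cells. In the precursor gate, precursor markers summed to 3103 CPM in knockout and 3141 CPM in wild-type cells. Oligodendrocyte markers there summed to 30886 CPM in knockout and 27081 CPM in wild-type cells. The gate name gives the best-scoring marker list, and the stage of these cells was not tested. Cstb had another order, with 248 CPM in knockout and 227 CPM in wild-type fibroblast-gated cells, then 238 CPM in knockout and 205 CPM in wild-type monocyte-gated cells, and the intervals of these neighbours overlapped in each library. UMIs are 3' tags that were not divided by transcript length, so levels are compared between gates and libraries and not between genes.

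**Figure D1:**
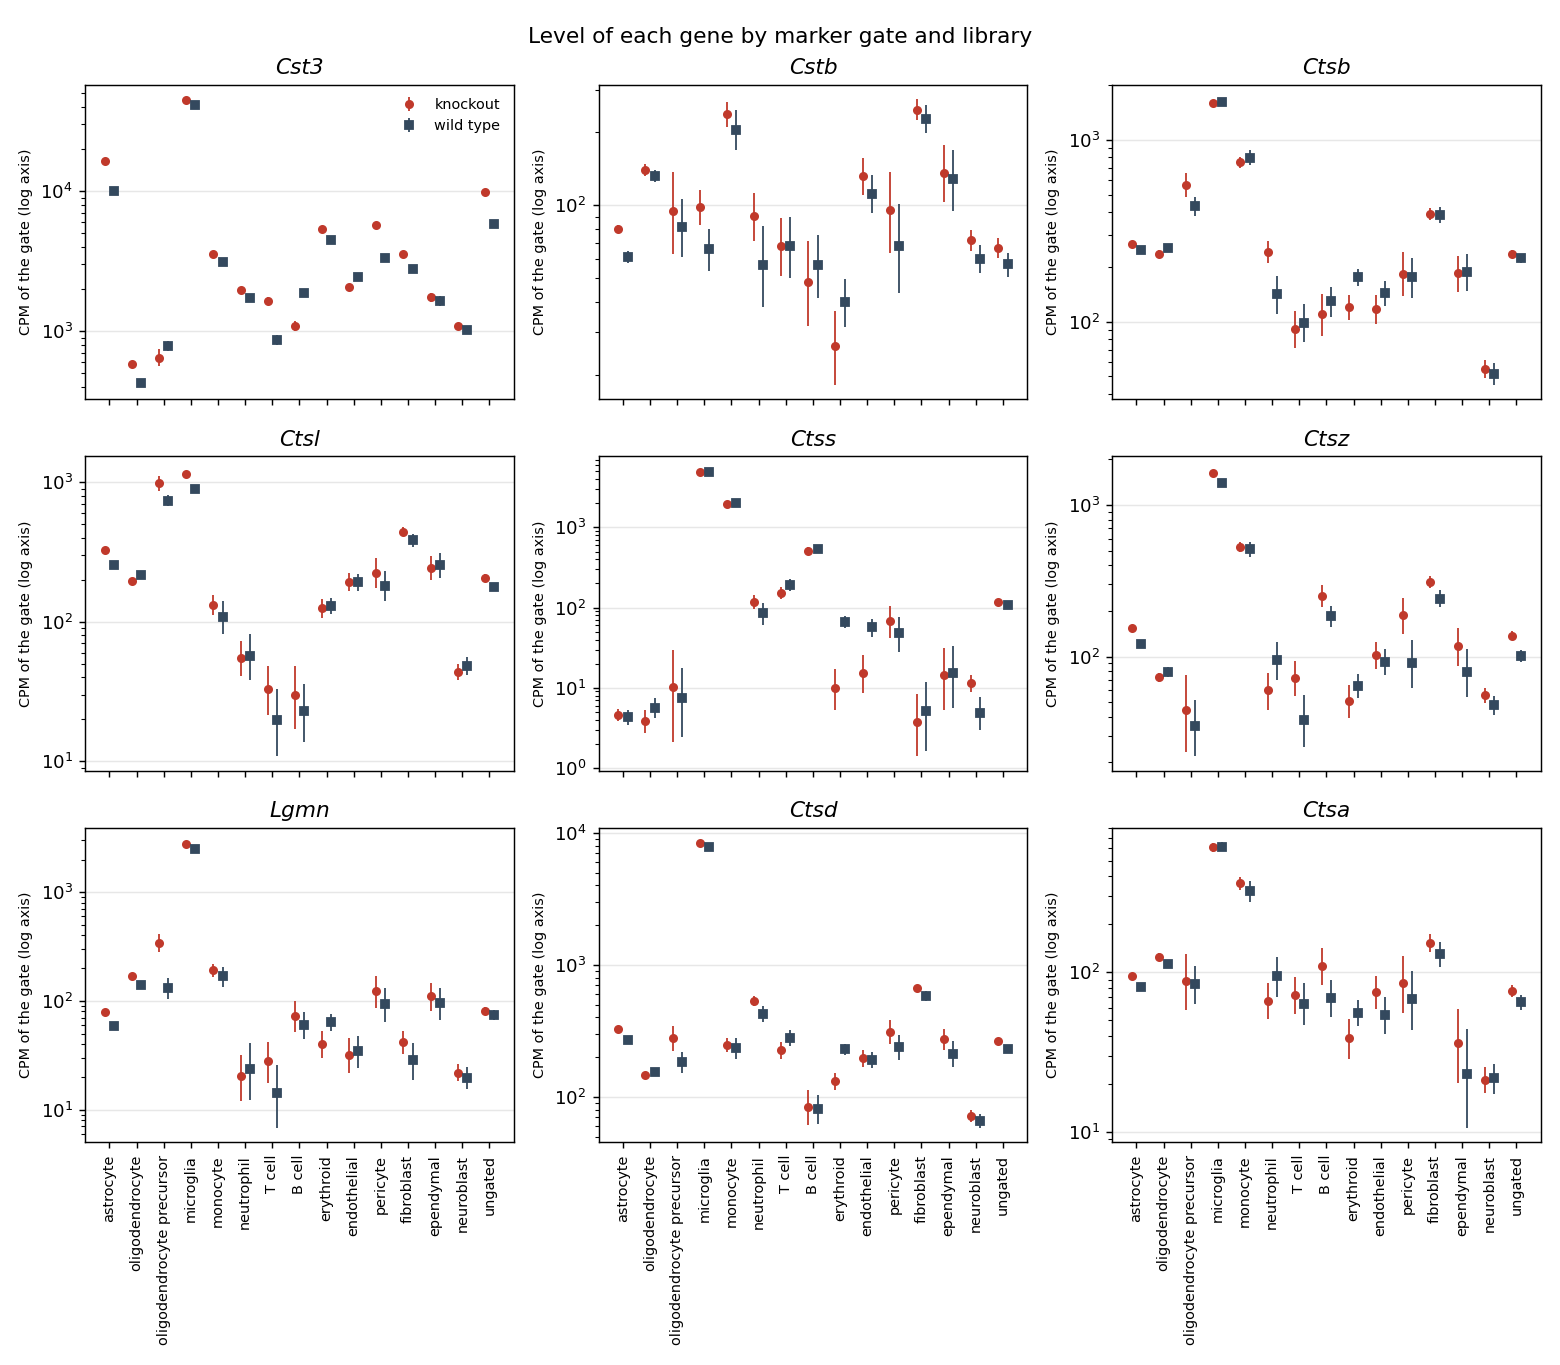
Level of each member in CPM of the gate (vertical log axis) by marker gate (horizontal axis), with knockout as red circles left of wild type as dark squares and bars for the exact Poisson 95% interval. Cst3 was highest in microglia-gated cells, at 45028 CPM in the knockout library and 41433 CPM in the wild-type library, and Cstb was highest in fibroblast-gated cells.

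Cst3 was higher in knockout than in wild-type astrocyte-gated cells. The ratio was 1.62-fold, a log2 ratio of 0.69 (interval 0.69 to 0.70), from 483959 knockout and 198317 wild-type UMIs. Of 12862 genes with at least 50 UMIs in the gate, Cst3 ranked 22 from the top by log2 ratio with 10 CPM added to both sides. All 9 members were higher in the knockout library, where 41.5% of all genes were. The intervals of 8 lay above 0, as did those of 23.7% of genes, while 37.4% of genes and no member had an interval below 0. These shares are over genes of every transcript length, and shares within bins of length are given further below. Cst3 alone passed a log2 ratio of 0.5, which 0.777% of genes reached, and none was at or below -0.5, where 2.26% of genes were. Astrocyte markers summed to 25559 CPM in knockout and 27929 CPM in wild-type astrocyte-gated cells, and the median depth was 9641 UMIs in knockout and 13880 UMIs in wild-type cells. The part that depth plays in these ratios was not tested beyond the depth tiers and thinning given next.

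Thinning draws each cell down to 2000 UMIs and leaves out shallower cells, which were 65 of 3041 knockout and 12 of 1410 wild-type astrocyte-gated cells, and 102 of 321 knockout and 77 of 268 wild-type microglia-gated cells. After it, the median astrocyte-gated cell held 29 Cst3 UMIs in the knockout library, with a 10th to 90th percentile of 11 to 58, and 18 UMIs in the wild-type library, with 7 to 37. The 2 distributions overlapped widely, and the knockout one was shifted upward along its length. In the shallowest, middle and deepest tier of cells by UMI total, the log2 ratio was 0.75, 0.71 and 0.67. It was also above 0 in each of the 5 clusters with enough astrocyte-gated cells, between 0.23 in cluster 4 and 0.50 in cluster 0. Cluster 1, led by Crym and the metallothioneins Mt1 and Mt2, held 43.8% of knockout and 13.3% of wild-type astrocyte-gated cells, and had 18886 CPM in the knockout library and 13565 CPM in the wild-type library. Cluster 4, led by Trpm3 and Gria2, held 9.04% of knockout and 31.3% of wild-type cells, and had 9759 CPM in the knockout library and 8300 CPM in the wild-type library. When the clusters were mixed in the same proportions, the log2 ratio was 0.45. Astrocyte-gated cells with a Gfap UMI after thinning had 16856 CPM in the knockout library (152 cells) and 8960 CPM in the wild-type library (58 cells). Those without one had 16269 CPM in the knockout library and 10141 CPM in the wild-type library.

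**Figure D2:**
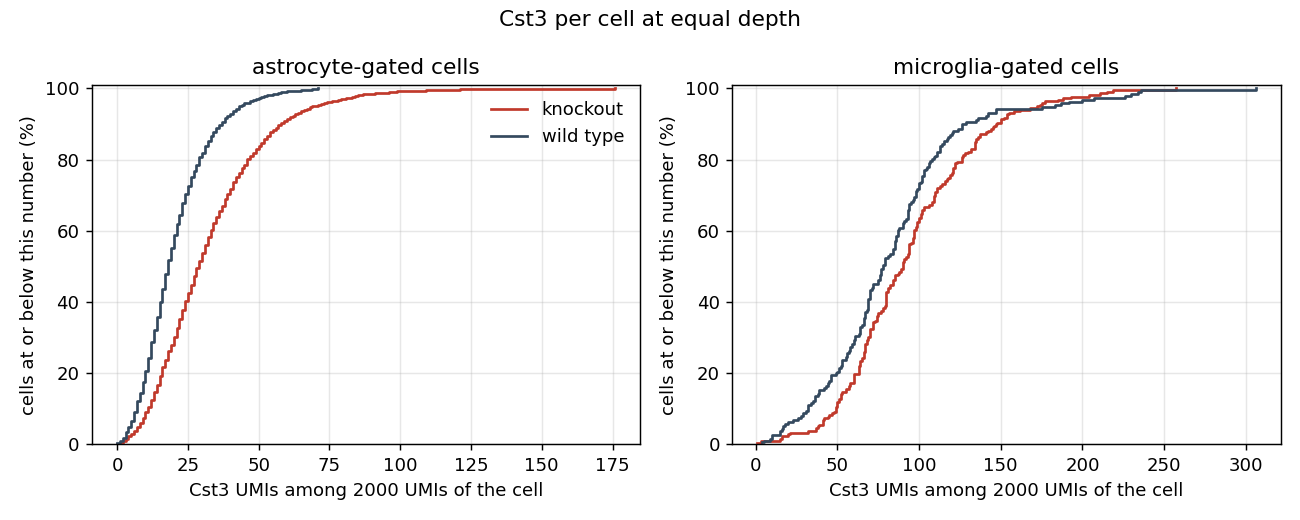
Cumulative share of cells (vertical axis, percent) by Cst3 UMIs among 2000 UMIs of the cell (horizontal axis), for astrocyte-gated cells on the left and microglia-gated cells on the right, with knockout in red and wild type dark; cells under 2000 UMIs are left out. The knockout curve lies to the right in astrocyte-gated cells and over most of the range in microglia-gated cells, where the curves cross near both ends, with medians of 29 knockout and 18 wild-type UMIs in astrocyte-gated cells and of 90 knockout and 78 wild-type UMIs in microglia-gated cells.

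**Figure D3:**
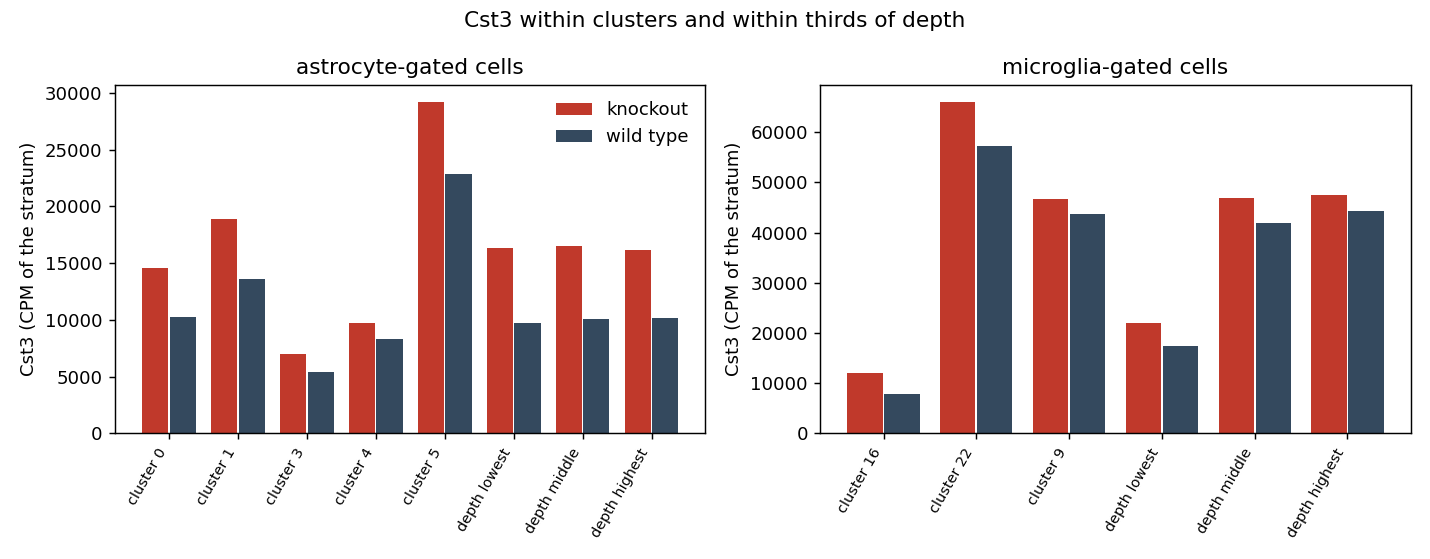
Cst3 level in CPM of the stratum (vertical axis, bars from 0) within clusters and within tiers of depth (horizontal axis), for astrocyte-gated cells on the left and microglia-gated cells on the right, with knockout bars in red left of wild-type bars. The knockout bar is the higher of each pair, at 18886 CPM against 13565 CPM in astrocyte cluster 1 and 11955 CPM against 7886 CPM in microglia cluster 16.

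The other members of the astrocyte gate differed less. Cstb, which inhibits cathepsins in the cytosol, had 80.1 CPM in the knockout library and 61.3 CPM in the wild-type library (log2 0.39, interval 0.29 to 0.49). Ctsl, an endopeptidase of the lysosome, had 326 CPM in knockout and 255 CPM in wild-type cells (log2 0.35, interval 0.30 to 0.40). Ctsz, a carboxypeptidase, had 154 CPM in knockout and 121 CPM in wild-type cells (log2 0.35, interval 0.28 to 0.42). These 3 and Lgmn moved by similar amounts. Lgmn, which cleaves after asparagine and processes other cathepsins, had 78.6 CPM in knockout and 59.4 CPM in wild-type cells (log2 0.40, interval 0.30 to 0.51). Ctsd had 328 CPM in knockout and 270 CPM in wild-type cells (log2 0.28, interval 0.23 to 0.33). Ctsa, which also protects neuraminidase and beta-galactosidase in a complex, had 94.6 CPM in knockout and 80.8 CPM in wild-type cells (log2 0.23, interval 0.14 to 0.32). Ctsb was the smallest of those with an interval above 0, at 267 CPM in knockout and 248 CPM in wild-type cells (log2 0.11, interval 0.06 to 0.16). Ctss was at 4.59 CPM in knockout and 4.28 CPM in wild-type cells (log2 0.10, interval -0.30 to 0.51), and after thinning 0.907% of knockout and 0.787% of wild-type astrocyte-gated cells held a UMI of it.

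Together the 9 members made up 1.77% of UMIs in knockout and 1.12% in wild-type astrocyte-gated cells. Cst3 had 13.0 UMIs for each UMI of the cathepsins and Lgmn in the knockout library, against 9.74 in the wild-type library. Genes were also binned by transcript length. The longest annotated transcript has 6168 bases for Ctsl and 860 bases for Cst3. Which transcripts the tags come from was not tested. The median log2 ratio was -0.22 in the bin of Ctsl and 0.17 in that of Cst3. In these bins 0.312% of genes had a larger log2 ratio than Ctsl and 0.778% a larger one than Cst3. For the other members the share was 27.8% for Cstb, 7.63% for Ctsb, 73.0% for Ctss and 15.1% for Ctsz. It was 6.23% for Lgmn, 10.6% for Ctsd and 6.68% for Ctsa. In astrocyte-gated cells the microglia markers summed to 62.1 CPM in knockout and 68.6 CPM in wild-type cells.

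**Figure D4:**
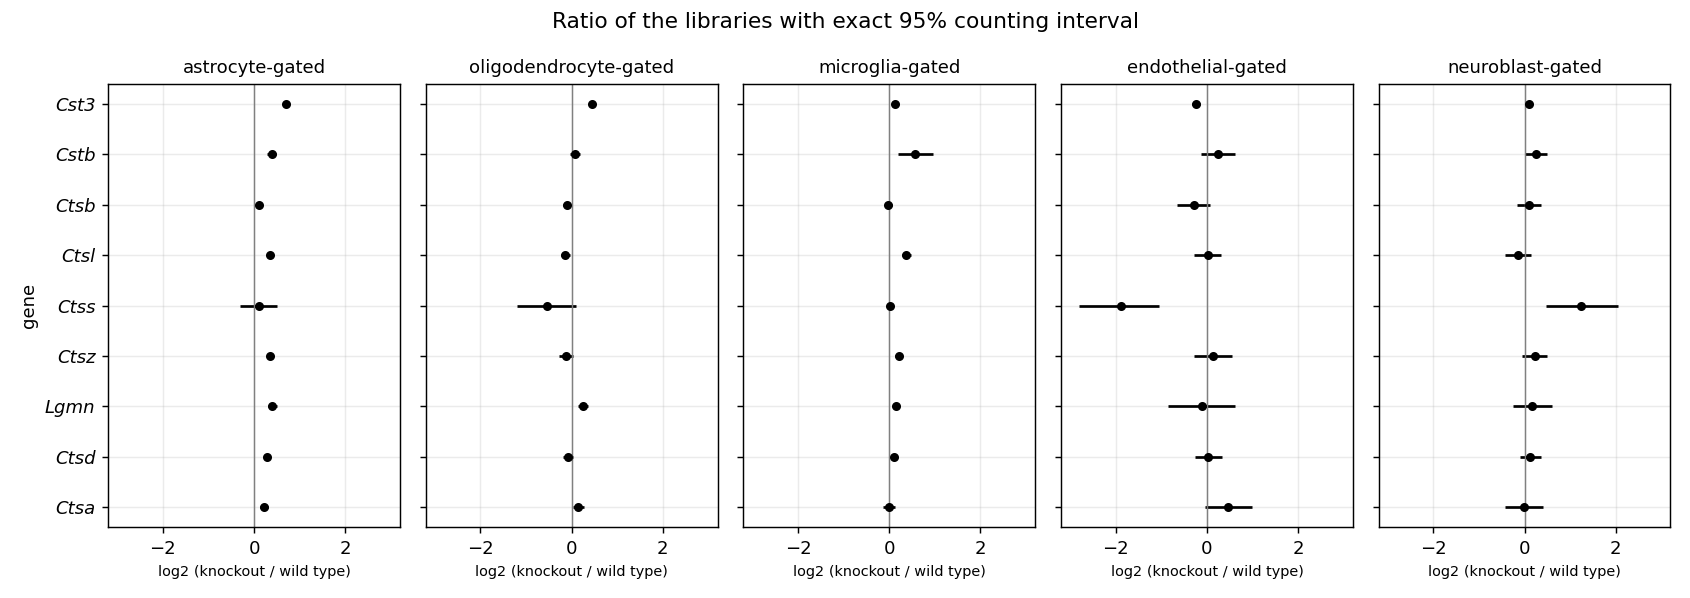
Log2 ratio of knockout over wild type (horizontal axis) for each member (vertical axis) in the 5 gates with at least 100 cells in each library, with points for the ratio and bars for the exact 95% interval. All 9 points lie above 0 in astrocyte-gated cells, with Cst3 at 0.69, and the widest bars belong to Ctss in endothelial-gated and neuroblast-gated cells.

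In microglia-gated cells 7 of 9 members were higher in the knockout library, where 49.3% of 7343 genes were. The intervals of 6 lay above 0, as did those of 11.9% of genes, while 12.7% of genes and no member had an interval below 0. These shares are over genes of every transcript length. Within bins of length, 70.0% of genes had a larger ratio than Cst3, 52.3% than Ctsd, 46.0% than Lgmn and 44.6% than Ctsz. The share was 13.1% for Cstb, and that for Ctsl is given below. Cst3 had a log2 ratio of 0.12 (interval 0.10 to 0.14), and it was 0.037 with doublets kept and turned to -0.12 when the median of genes of like transcript length was taken off. Ctsd, at 8343 CPM in the knockout library and 7765 CPM in the wild-type library, had a log2 ratio of 0.10 (interval 0.07 to 0.14), which was 0.028 with doublets kept and turned to -0.018 with the length trend removed. Ctsl had 1153 CPM in knockout and 887 CPM in wild-type cells (log2 0.38, interval 0.27 to 0.48). In its bin of annotated transcript length the median was -0.15, and 3.53% of genes had a larger ratio. After thinning, 88.1% of knockout and 74.3% of wild-type microglia-gated cells held a Ctsl UMI, whereas 3.85% of knockout and 1.43% of wild-type T cell-gated cells did. Without thinning, 81.6% of knockout and 76.5% of wild-type microglia-gated cells held one.

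Cstb had 98.2 CPM in knockout and 66.0 CPM in wild-type microglia-gated cells (log2 0.57, interval 0.19 to 0.96), from 142 and 99 UMIs. It was the member past the log2 ratio of 0.5 in this gate, which 5.08% of genes reached, and none was at or below -0.5, where 5.71% of genes were. Ctsz had 1616 CPM in knockout and 1403 CPM in wild-type cells (log2 0.20, interval 0.12 to 0.29). Lgmn had 2794 CPM in knockout and 2522 CPM in wild-type cells (log2 0.15, interval 0.08 to 0.21). The remaining 3 had intervals that span 0. Ctsb had 1588 CPM in knockout and 1608 CPM in wild-type cells (log2 -0.02, interval -0.10 to 0.07). Ctss, a protease that stays active at neutral pH, had 4980 CPM in knockout and 4955 CPM in wild-type cells (log2 0.01, interval -0.04 to 0.05). Ctsa had 611 CPM in knockout and 614 CPM in wild-type cells (log2 -0.01, interval -0.14 to 0.13).

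Within microglia-gated cells Cst3 varied with cluster more than with library. In cluster 16 it had 11955 CPM in the knockout library and 7886 CPM in the wild-type library, with median depths of 1001 UMIs in knockout and 1628 UMIs in wild-type cells. In cluster 9, which held 65.1% of knockout and 61.9% of wild-type microglia-gated cells, it had 46682 CPM in knockout and 43678 CPM in wild-type cells. Cluster 22 held 6.85% of knockout and 11.6% of wild-type cells, at median depths of 1576 and 1637 UMIs. There Cst3 had 66084 CPM in knockout and 57231 CPM in wild-type cells. The leading genes of cluster 22 were Ccl2, Ccl7, Ccl12, Ccl4 and the border macrophage marker Pf4. The next values are from the 219 knockout and 191 wild-type microglia-gated cells with at least 2000 UMIs, which leaves out much of the shallow clusters 16 and 22. Cells with a UMI of the chemokine genes Ccl3 or Ccl4 after thinning had 43591 CPM of Cst3 in the knockout library and 42976 CPM in the wild-type library. Those without one had 48600 CPM in the knockout library and 43922 CPM in the wild-type library. Astrocyte markers summed to 1352 CPM in knockout and 732 CPM in wild-type microglia-gated cells, and their part in these ratios was not tested.

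In oligodendrocyte-gated cells 4 of 9 members were higher in the knockout library, where 41.8% of 10405 genes were. The intervals of 3 lay above 0, as did those of 14.6% of genes, and the intervals of 2 lay below 0, as did those of 25.1% of genes. None passed a log2 ratio of 0.5 in either direction with 10 CPM added, which 0.682% of genes did upward and 1.43% downward. Lgmn had 169 CPM in knockout and 142 CPM in wild-type cells (log2 0.25, interval 0.14 to 0.36). Ctsa had 124 CPM in knockout and 113 CPM in wild-type cells (log2 0.14, interval 0.02 to 0.26). Ctsl and Ctsb had intervals below 0. Ctsl had 195 CPM in knockout and 215 CPM in wild-type cells (log2 -0.14, interval -0.23 to -0.04), and 1 wild-type cell held 342 of the 1875 wild-type UMIs. Without the top cell of each library the ratio of Ctsl was 0.01. Ctsb had 237 CPM in knockout and 256 CPM in wild-type cells (log2 -0.11, interval -0.20 to -0.03). Cst3 had a log2 ratio of 0.44 (interval 0.38 to 0.50), but it was -1.42, 0.36 and 1.04 in the shallowest, middle and deepest tiers. After thinning, 57.0% of knockout and 44.6% of wild-type oligodendrocyte-gated cells held a Cst3 UMI, against 54.8% of knockout and 45.7% of wild-type T cell-gated cells, 69.6% of knockout and 65.5% of wild-type B cell-gated cells, and 79.5% of knockout and 65.8% of wild-type neuroblast-gated cells. The oligodendrocyte shares lay near those of T cell-gated cells and below those of B cell-gated cells, lymphocytes that should hold little Cst3. The part of free RNA in these shares was not tested. Without thinning, 98.0% of knockout and 95.8% of wild-type oligodendrocyte-gated cells held a Cst3 UMI, at median depths of 11293 UMIs in knockout and 13674 UMIs in wild-type cells, against 88.2% of knockout and 89.0% of wild-type T cell-gated cells, at 6179 UMIs in knockout and 7538 UMIs in wild-type cells.

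In endothelial-gated cells 5 of 9 members were higher in the knockout library, where 51.3% of 6244 genes were. No member had an interval above 0, as 10.1% of genes had, and Cst3 and Ctss had intervals below 0, as 8.42% of genes had. Cst3 was lower, at 2077 CPM in knockout and 2448 CPM in wild-type cells (log2 -0.24, interval -0.32 to -0.15), but the ratio was 0.21 with doublets kept. Hemoglobin and other erythroid markers summed to 3880 CPM in knockout and 22679 CPM in wild-type endothelial-gated cells, and their part was not tested. Ctss had 15 UMIs in knockout and 61 UMIs in wild-type cells (log2 -1.88, interval -2.80 to -1.05), past a log2 ratio of -0.5 that 4.92% of genes reached, while no member reached 0.5, as 5.04% of genes did. In the wild-type library 1 cell held 27 of those UMIs, and without the top cell of each library the ratio was -1.28. Microglia markers summed to 48.3 CPM in knockout and 86.8 CPM in wild-type endothelial-gated cells, and their part was not tested. In neuroblast-gated cells 7 of 9 members were higher, where 37.4% of 10154 genes were. The intervals of Cst3, Cstb and Ctss lay above 0, as did those of 12.5% of genes, while 27.1% of genes and no member had an interval below 0. Within bins of transcript length, 64.3% of genes had a larger ratio than Cst3, 44.4% than Cstb and 0.394% than Ctss. Ctss had 63 UMIs in knockout and 19 UMIs in wild-type cells (log2 1.23, interval 0.47 to 2.05). It was the member past a log2 ratio of 0.5 with 10 CPM added, as 0.394% of genes were, and none was at or below -0.5, where 5.76% of genes were. 1 knockout cell held 34 of the 63 UMIs, and without the top cell of each library the ratio was 0.28 (interval -0.63 to 1.23).

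Cst3 also differed in smaller gates that should hold little of it. T cell-gated cells had 1651 CPM in knockout and 868 CPM in wild-type cells (log2 0.93). B cell-gated cells had 1086 CPM in knockout and 1862 CPM in wild-type cells (log2 -0.78). Erythroid-gated cells had more, with 5402 CPM in knockout and 4510 CPM in wild-type cells. Astrocyte markers summed to 7803 CPM in knockout and 7910 CPM in wild-type erythroid-gated cells. The part of free RNA in these levels was not tested. For each astrocyte-marker UMI, T cell-gated cells held 1.00 Cst3 UMIs in the knockout library and 0.811 in the wild-type library, B cell-gated cells held 0.690 in the knockout and 1.30 in the wild-type library, and astrocyte-gated cells held 0.639 in the knockout and 0.362 in the wild-type library. In oligodendrocyte precursor-gated cells, of which there were 20 knockout and 27 wild-type, Lgmn had 343 CPM in the knockout library and 131 CPM in the wild-type library (log2 1.39, interval 0.96 to 1.82). As given above, this gate also held oligodendrocyte markers.

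Over the 5 main gates and both libraries, the genes with profiles most like each member were found by Pearson correlation of log2(CPM + 10) over 10 points, which share libraries and gates. Ctsz and Ctsd were each other's nearest (r = 0.998). Ctss was nearest to Cx3cr1, a microglial receptor gene (r = 0.999), Ctsb and Ctsl to the sialidase gene Neu1 (r = 0.990 and 0.988), Ctsa to Ppt1 (r = 0.995), Lgmn to Abhd12 (r = 0.993) and Cst3 to Cd302 (r = 0.987). Cstb was the member least like the others, with r of -0.44 against Cst3.

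The wider lysosomal gene lists gave the following, with 10 CPM added. They are set beside genes of every transcript length, and the part of length in the list counts and medians was not tested. In astrocyte-gated cells the median log2 ratio of all genes was 0.17 in the length bin of Cst3 and -0.22 in that of Ctsl. In astrocyte-gated cells 4 of 4 measured other cathepsins were higher (median log2 0.20, against -0.04 over all genes). Ctsf had 180 CPM in knockout and 139.6 CPM in wild-type cells, and Ctsc had 13.4 CPM in knockout and 7.44 CPM in wild-type cells. Of the vacuolar ATPase, which acidifies the lysosome, 12 of 15 were higher (median 0.25), with Atp6v0e at 427 CPM in knockout and 282 CPM in wild-type cells. Of lysosomal hydrolases 17 were higher and 15 lower (median 0.02). Of lysosomal membrane proteins 7 were higher and 10 lower (median -0.02), with Cd63 at 901 CPM in knockout and 685 CPM in wild-type cells. Of sorting and TFEB family genes 1 was higher and 10 lower (median -0.19). The 1 measured of the other cystatins, Cst6, was at 1.59 CPM in knockout and 0.917 CPM in wild-type cells, and of the microglial homeostatic and activation genes 3 were higher and 3 lower (median -0.01). In microglia-gated cells the other cathepsins were higher in 4 of 4 (median 0.23, against -0.01 over all genes), the vacuolar ATPase in 11 of 15 (median 0.16), the hydrolases in 13 of 30 (median -0.01), the membrane proteins in 11 of 17 (median 0.04) and the sorting and TFEB family genes in 6 of 10 (median 0.05). Homeostatic and activation genes were higher in 3 of 8 (median -0.37), with Ccl4 at 705 CPM in knockout and 1600 CPM in wild-type cells. The vacuolar ATPase was also higher in 11 of 15 in each of oligodendrocyte-gated, endothelial-gated and neuroblast-gated cells. In the same order, the other cathepsins were higher in 3 of 4, 4 of 4 and 0 of 2. The sorting and TFEB family genes were higher in 1 of 11, 3 of 6 and 2 of 9.

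Some member counts may include reads of an overlapping gene, since no source used here says whether the counting used strand. Ctsb overlaps Fdft1 on the other strand, which had 17261 UMIs over both libraries. Also on the other strand, Ctsz overlaps Nelfcd, Ctsl overlaps Gm47123, and Ctsa overlaps Neurl2 and Pltp. On the same strand, Ctsd overlaps a further protein-coding gene, and Ctsl and Ctss each overlap a processed pseudogene. These same-strand genes are not among those measured. Cst3 lies on chromosome 2 from 148871722 to 148875692 (minus strand, GRCm38, GENCODE M21) with 3 exons in its longest transcript, and no gene of the annotation overlapped it.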

How the data were processed

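Per the file headers, the deposited values are whole-number UMI counts of each gene in each barcode, without normalization. The submitters' processing notes name Cell Ranger 4.0.0, Seurat 3.0, R 4.0.3 and mm10, and no source used here names the annotation release. A minimum of 500 genes and a maximum of 20% mitochondrial UMIs removed 1702 knockout (18.5%) and 1998 wild-type (27.9%) barcodes. Scrublet's automatic calls (164 knockout, 0 wild type) were taken as failed, so the top-scoring cells were called at 0.8% per 1000 barcodes (448 knockout, 212 wild type). Cells were gated on markers of 18 types, none of them a member: a scaled marker score of at least 0.5, a lead of 0.3 and 3 markers detected, thresholds set after the data were seen. Leiden clusters used 2000 variable genes without the members, 30 components, 15 neighbours and resolution 1. UMIs were summed by gate and library and scaled to CPM; ratios are knockout over wild type, with exact Poisson, conditional binomial or Clopper-Pearson intervals. A fold was called at a log2 ratio of 0.5 with 10 CPM added. All members were named in each gate reaching 100 cells per library; from a list, at most 4 genes by size of ratio and 3 by level could be named. Members, lists and motifs were chosen with earlier results of these data known. The intervals were run on simulated Poisson counts. Those counts hold no variation between cells or pools, so this run cannot show how the intervals cover such variation. Python 3.11.15, scanpy 1.11.5 and scipy 1.17.1 were used.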

Additional observations from a re-analysis of the deposited data

Results flagged for a closer look

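4 members had intervals on opposite sides of 0 in a pair of gates, and these differences between gates were not tested. For Cst3 the log2 ratio was 0.69 in astrocyte-gated and -0.24 in endothelial-gated cells, a difference of 0.93. For Ctsl it was 0.38 in microglia-gated and -0.14 in oligodendrocyte-gated cells, a difference of 0.51, and the oligodendrocyte value was 0.01 without the top cell of each library. For Ctsb it was 0.11 in astrocyte-gated and -0.11 in oligodendrocyte-gated cells, a difference of 0.22. For Ctss it was 1.23 in neuroblast-gated and -1.88 in endothelial-gated cells, a difference of 3.11, and 1 cell held 34 of the 63 knockout UMIs in the neuroblast gate.

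Cst3 also differed between the libraries in barcodes outside the comparisons, in both directions. Cells in no gate had 9861 CPM in the knockout library and 5873 CPM in the wild-type library, a log2 ratio of 0.75. Cells removed as doublets had 10064 CPM in the knockout library and 8406 CPM in the wild-type library, a log2 ratio of 0.26. Barcodes removed by the filter had 929 CPM in the knockout library and 1378 CPM in the wild-type library, a log2 ratio of -0.57 (interval -0.61 to -0.53).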

How the results depend on the processing

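The log2 ratio of Cst3 in astrocyte-gated cells was 0.71 with classes from clusters, 0.69 with a stricter gate, 0.68 with doublets kept, 0.70 on a total without mitochondrial, ribosomal protein and hemoglobin genes, 0.82 with trimmed mean of M values scaling, 0.68 with each cell weighed the same, 0.68 after thinning, 0.45 with the same mix of clusters, 0.67 with the T cell level subtracted and 0.52 with the transcript length trend removed. In microglia-gated cells Cst3 and Ctsd were 0.19 and 0.19 with classes from clusters, 0.037 and 0.028 with doublets kept, 0.16 and 0.15 with each cell weighed the same, 0.17 and 0.18 after thinning, and 0.15 and 0.15 with the same mix of clusters; Cst3 was 0.10 with the T cell level subtracted and, in an alternative chosen after seeing the data, 0.14 without the top cell. Both reversed with the length trend removed, to -0.12 and -0.018. The cause was not tested. Of 9 members in astrocyte-gated cells, 5 of the 6 with a level above that in T cell-gated cells were higher once it was subtracted.

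Reversals of other members whose interval excluded 0 were Ctss in neuroblast-gated cells (-0.028 with a stricter gate, -0.27 after thinning), Cst3 in endothelial-gated cells (0.21 with doublets kept), Cst3 in oligodendrocyte-gated cells (-0.60 with each cell weighed the same), Cst3 in neuroblast-gated cells (-0.43 with each cell weighed the same, -0.010 after thinning, -0.088 with the length trend removed), Ctsa in oligodendrocyte-gated cells (-0.036 after thinning), Ctsz in astrocyte-gated cells (-0.012 with the T cell level subtracted), Ctsb in oligodendrocyte-gated cells (0.0016 with the length trend removed) and Ctsl there (0.025 with the length trend removed, 0.0073 without the top cell). The counts that follow leave out Cst3 in astrocyte-gated cells and Cst3 and Ctsd in microglia-gated cells, which are given above. Of 528 values for the other 42 pairs of member and gate under 13 alternatives, 459 kept their direction and 69 changed it. The 12 of these whose own interval excluded 0 are listed above, and the other 57 belong to members whose interval spans 0. Cst3 in endothelial-gated cells was -1.89 with the T cell level subtracted. No paired analysis was possible because each genotype has 1 library. Depth limits Ctss in oligodendrocyte-gated, endothelial-gated and neuroblast-gated cells, where it had 15 to 63 UMIs in a library.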
